A study of Homo sapiens with 27 samples.

Results

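Mitochondrial ribosomal protein genes were taken as every row of the normalised expression table whose symbol begins with MRPL or MRPS followed by a number and at most 1 letter from A to C. The rule found 76 of the 13523 genes in the table, 48 named for the large subunit (MRPL) and 28 for the small subunit (MRPS). The cells were 501mel, a human melanoma line that expresses MITF, TFEB and TFE3, profiled by 3′ end RNA sequencing with 3 libraries in each of 9 labelled groups. Parental (WT) cells were left untreated (WT CTRL), kept for 12 h in HBSS, a saline that supplies glucose without amino acids, or given 250 nM of the mTOR inhibitor Torin for 12 h. TFE3 KO, TFEB KO and TFE3/TFEB double KO (DKO) cells, made with CRISPR-Cas9, had 12 h controls and 12 h of 250 nM Torin. Each KO genotype was 1 clone, so clone and genotype cannot be told apart, and the WT controls are labelled non-treated whereas the KO controls carry a 12 h time. The columns labelled WT HBSS replicate 3 and WT Torin replicate 1 were identical, and both were left out. This left 25 libraries, with n = 2 for WT HBSS and WT Torin and n = 3 for every other group.

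The mitochondrial ribosome translates the few mRNAs of the mitochondrial genome, which encode core subunits of the respiratory chain and ATP synthase. Its RNAs come from mitochondrial DNA, but its proteins are all encoded by nuclear genes, translated in the cytosol and imported. Many of these proteins have counterparts in bacteria, and many others are found only in mitochondria. TFEB and TFE3 are kept in the cytoplasm by mTORC1 signalling when nutrients are plentiful, and they bind the CLEAR box, an extended E-box, in promoters of lysosomal genes.

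Libraries held 4147050 to 6526392 reads in the genes of the table, and the members took 0.693% to 0.994% of them. TFE3 stood at 24.0 ± 0.285 (SD, n = 3) in WT CTRL, 6.30 ± 1.27 in TFE3 KO and 6.35 ± 0.470 in DKO. TFEB stood at 3.25 ± 0.827 in WT CTRL, where 3 reads were worth 0.493 to 0.594, and at 29.2 ± 1.65 (n = 2) in WT HBSS. It stood at 1.11 ± 0.485 in TFEB KO, 0.681 ± 0.764 in TFE3 KO and 0.661 ± 0.457 in DKO, nearer to the value of 3 reads. Its level was thus low in all 3 knockouts and does not set TFEB KO apart from TFE3 KO. All 10 melanocyte markers looked for were in the table, with a summed value of 6370 to 16256 per library. Of the other cell types, 2 of 6 fibroblast markers (summed 0.208 to 6.62), KRT10 alone of 4 keratinocyte markers (48.1 to 117) and CD68 alone of 4 immune markers (29.5 to 74.2) were in the table, and none of the 3 endothelial markers. In bulk samples, fewer cells of a type and less RNA per cell cannot be told apart. Nothing in the sources states that the libraries of a group came from separately grown cultures, so the p-values measure the spread between these libraries, which may be technical.

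Of the 76 genes, 75 passed the filter on low values, set at 1 normalised count or more in 3 or more libraries, and were tested. MRPL23 did not. It had 0 to 5 reads per library, and 3 reads, the upper limit left by a library with 0, were worth 0.460 to 0.711 normalised counts, a limit that covers counting error only. Since each read stands for 1 transcript end, values were not divided by transcript length, although the yield of a 3′ end can differ between genes. The 5 highest means over the 25 libraries were MRPS21 at 474, MRPS5 at 331, MRPL20 at 306, MRPS16 at 304 and MRPS18B at 299.8 normalised counts. The 5 lowest among those tested were MRPL39 at 12.0, MRPS28 at 13.4, MRPL50 at 20.4, MRPL54 at 20.8 and MRPL28 at 22.2.

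Summed over all members, WT CTRL libraries held 8926 ± 583 normalised counts (SD, n = 3), WT HBSS 7565 ± 16.1 (n = 2) and WT Torin 7225 ± 75.6 (n = 2). The lowest WT CTRL library, at 8466, stood above every library of HBSS and Torin. The controls of TFE3 KO (9305 ± 307) and DKO (9422 ± 462) overlapped with WT CTRL, and the control of TFEB KO (7651 ± 157) lay below it. Torin groups were at 7498 ± 128 in TFE3 KO, 6344 ± 92.5 in TFEB KO and 7504 ± 56.8 in DKO, each below all controls of its own genotype. These sums depend on the scaling of the deposited values, which the sources do not give. As a share of the reads of each library, members averaged 0.884% in WT CTRL, 0.693% in WT HBSS and 0.734% in WT Torin. By this measure HBSS lay below Torin. The share averaged 0.810% in TFEB KO controls and 0.698% in TFEB KO Torin. The large subunit made up 57.7% ± 0.619 of the sum in WT CTRL, 52.7% ± 0.654 in HBSS and 55.0% ± 0.122 in Torin.

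**Figure D1:**
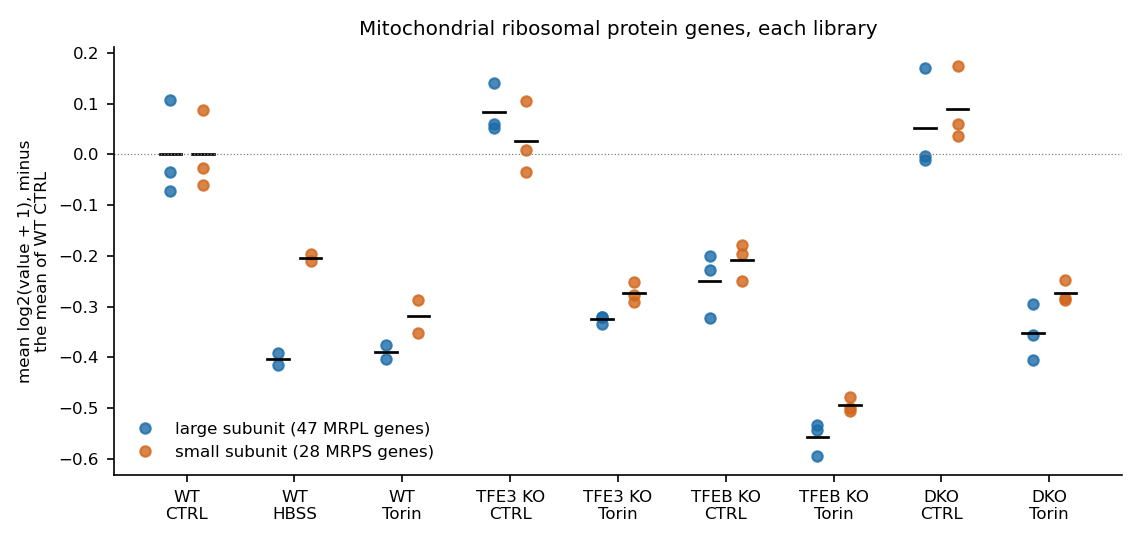
Each point is 1 library, and its height is the mean log2(value + 1) of the 47 tested large subunit genes (blue) or 28 small subunit genes (orange), minus the mean of WT CTRL; black bars are group means. All libraries in HBSS and Torin and the TFEB KO controls lie below the WT CTRL libraries, and in HBSS the large subunit (mean -0.40) lies below the small (mean -0.20), with MRPS30 and MRPS36 counted as small by their symbols.

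The promoters of the members were read to see which sequence motifs they share, since many of them moved together. Promoters of 67 of the 76 genes were found in RefSeq (GRCh38.p14), each covering 250 bases before and 50 after the transcription start, and 9506 protein-coding genes of the table served as the comparison. On either strand, the ETS box CCGGAAG, the core bound by GABP and related factors, stood in 28 of the 67 (41.8%) against 19.4% of the comparison genes. The E-box CACGTG stood in 6 (8.96%) against 10.4%, and the CLEAR box TCACGTGA, which contains an E-box, in 2 (2.99%) against 1.98%. The NRF1 core CGCATGCG stood in 3 (4.48%) against 3.89%. A divergent neighbour that starts within 1000 bases was present for 18 of 67 (26.9%) against 13.7%, and 2 members, MRPL46 and MRPS11, face each other with 320 bases between their starts. A match of letters is a description and not a bound site.

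The sequences below are the bases just before the start of 4 genes, on the gene's own strand, chosen because they fell with HBSS and Torin and differ in the motifs they hold, followed by the 30 bases around each CLEAR box, since TFEB and TFE3 bind this motif. Capitals mark the motifs searched. MRPL1, at chr4:77862580-77862829 (plus strand), holds none of the 4 motifs. MRPL17, at chr11:6683341-6683590 (minus strand), holds 2 NRF1 cores, MRPL20, at chr1:1407294-1407543 (minus strand), 2 ETS boxes, and MRPL22, at chr5:154940823-154941072 (plus strand), an E-box and an NRF1 core. The CLEAR boxes are at chr1:54199985-54200014 for MRPL37 and chr4:83455867-83455896 for MRPS18C, both on the plus strand. All 30 bases shown for MRPL37 lie in an exon that GENCODE annotates for CYB5RL, the divergent neighbour, and none of the other stretches overlaps an annotated exon.
MRPL1: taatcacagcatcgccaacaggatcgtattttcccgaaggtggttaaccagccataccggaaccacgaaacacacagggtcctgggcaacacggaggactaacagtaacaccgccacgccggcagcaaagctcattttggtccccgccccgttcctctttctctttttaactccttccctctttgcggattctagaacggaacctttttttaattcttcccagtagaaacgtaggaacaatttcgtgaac
MRPL17: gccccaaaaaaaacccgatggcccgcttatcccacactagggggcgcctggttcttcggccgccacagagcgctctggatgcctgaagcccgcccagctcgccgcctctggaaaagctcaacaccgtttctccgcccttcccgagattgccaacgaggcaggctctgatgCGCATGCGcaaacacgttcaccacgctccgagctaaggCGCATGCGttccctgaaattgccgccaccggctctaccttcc
MRPL20: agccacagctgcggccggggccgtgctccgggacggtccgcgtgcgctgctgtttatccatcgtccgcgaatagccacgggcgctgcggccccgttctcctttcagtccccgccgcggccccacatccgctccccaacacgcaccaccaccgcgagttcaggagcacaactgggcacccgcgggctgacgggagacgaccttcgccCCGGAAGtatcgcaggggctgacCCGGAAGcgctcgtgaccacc
MRPL22: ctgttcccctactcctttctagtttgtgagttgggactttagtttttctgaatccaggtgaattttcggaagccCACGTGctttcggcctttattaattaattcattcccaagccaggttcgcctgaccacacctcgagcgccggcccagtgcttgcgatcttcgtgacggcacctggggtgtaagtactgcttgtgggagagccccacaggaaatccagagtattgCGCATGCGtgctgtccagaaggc
MRPL37: tgcgcttcaccTCACGTGAggattttccag
MRPS18C: aatcataagccTCACGTGAcctgccgcgta

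Neither of the 2 genes with a CLEAR box was called in any comparison of a knockout with WT. MRPL37 differed by -0.17 ± 0.08 (log2, SE) in TFEB KO and MRPS18C by -0.14 ± 0.09, with adjusted p-values of 0.144 and 0.289 (limma). Of the 6 members with an E-box, 1 fell in HBSS and 4 fell and 1 rose with Torin in WT. Among the members with an ETS box, 19 of 28 fell in HBSS and 17 with Torin in WT, and among those without one, 20 of 39 and 25 of 39 fell, while 24.7% of all genes tested fell in HBSS and 23.4% with Torin.

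HBSS lowered the majority of the mitochondrial ribosomal protein genes in WT cells and raised a smaller group. Of the 75 tested genes, 42 fell and 8 rose at an adjusted p under 0.05 (limma on log2(value + 1), Benjamini-Hochberg), while 24.7% of all 13052 genes tested fell and 23.6% rose. The members' median log2 fold change was -0.33, and that of all genes was -0.03. The large subunit had 27 of 47 lower and 4 higher (median -0.34), and the small subunit 15 of 28 lower and 4 higher (median -0.26). By position in the ribosome, MRPS30 and MRPS18A count as large and MRPS36 as neither, and the medians were -0.34 and -0.32. The distance between the subunit medians in HBSS thus rests on how these genes are assigned. The means per library and the large subunit's share of the sum were not recomputed by position. Of the 44 members with a bacterial counterpart 27 fell and 3 rose, and of the 30 specific to mitochondria 15 fell and 4 rose.

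The lowest member in HBSS was MRPL1, which forms the mobile L1 stalk beside the tRNA exit site. It read 84.1, 73.2 and 81.2 in the WT CTRL libraries and 24.2 and 27.4 in HBSS. The groups did not overlap, and the change was -1.59 ± 0.11 (log2, SE; adjusted p = 1.06e-16, limma). MRPL57, a mitochondria-specific protein of the large subunit, read 144, 127 and 140.3 in control and 50.9 and 54.2 in HBSS, a change of -1.37 ± 0.10. MRPS11, a small subunit protein of the platform, fell from 63.2 ± 7.94 (SD, n = 3) to 26.8 ± 1.49 (n = 2), with an adjusted p of 7.05e-11 (limma). MRPL46, which shares a divergent promoter region with MRPS11, fell by 0.28 ± 0.11. MRPL17, a bacterial-type protein near the exit of the nascent chain tunnel, fell by 1.15 ± 0.12. MRPL40 fell from 116 ± 11.9 to 57.8 ± 7.59 (adjusted p = 1.07e-11, limma). MRPL20, the most abundant large subunit transcript, went from 371 ± 18.7 to 193 ± 0.872, a change of -0.94 ± 0.08.

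Of the 8 genes that rose in HBSS, MRPS30 moved the most. Despite its symbol, its protein sits in the large subunit. It read 55.2, 48.3 and 52.5 in WT CTRL and 140.1 and 122 in HBSS, and it stayed between 48.0 and 69.8 in the 20 libraries of Torin and of the knockouts. The change in HBSS was 1.32 ± 0.12 (adjusted p = 1.6e-13, limma). MRPS5, a protein of the mRNA entry channel and already among the most abundant members, read 296, 318 and 327 in control and 478 and 467 in HBSS, a rise of 0.59 ± 0.07. MRPL34, a small bacterial-type protein, rose by 0.56 ± 0.10 and MRPL44, which has a ribonuclease III-like fold, by 0.50 ± 0.15. MRPS36 rose by 0.41 ± 0.16 (adjusted p = 0.0292, limma), a call that was lost without WT CTRL replicate 3 (adjusted p = 0.229), without either HBSS library and in 2 other alternatives. Its protein is now known mainly as a part of the 2-oxoglutarate dehydrogenase complex. The other 3 were MRPL48, MRPL35 and MRPS25, with changes of 0.27 to 0.37.

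**Figure D2:**
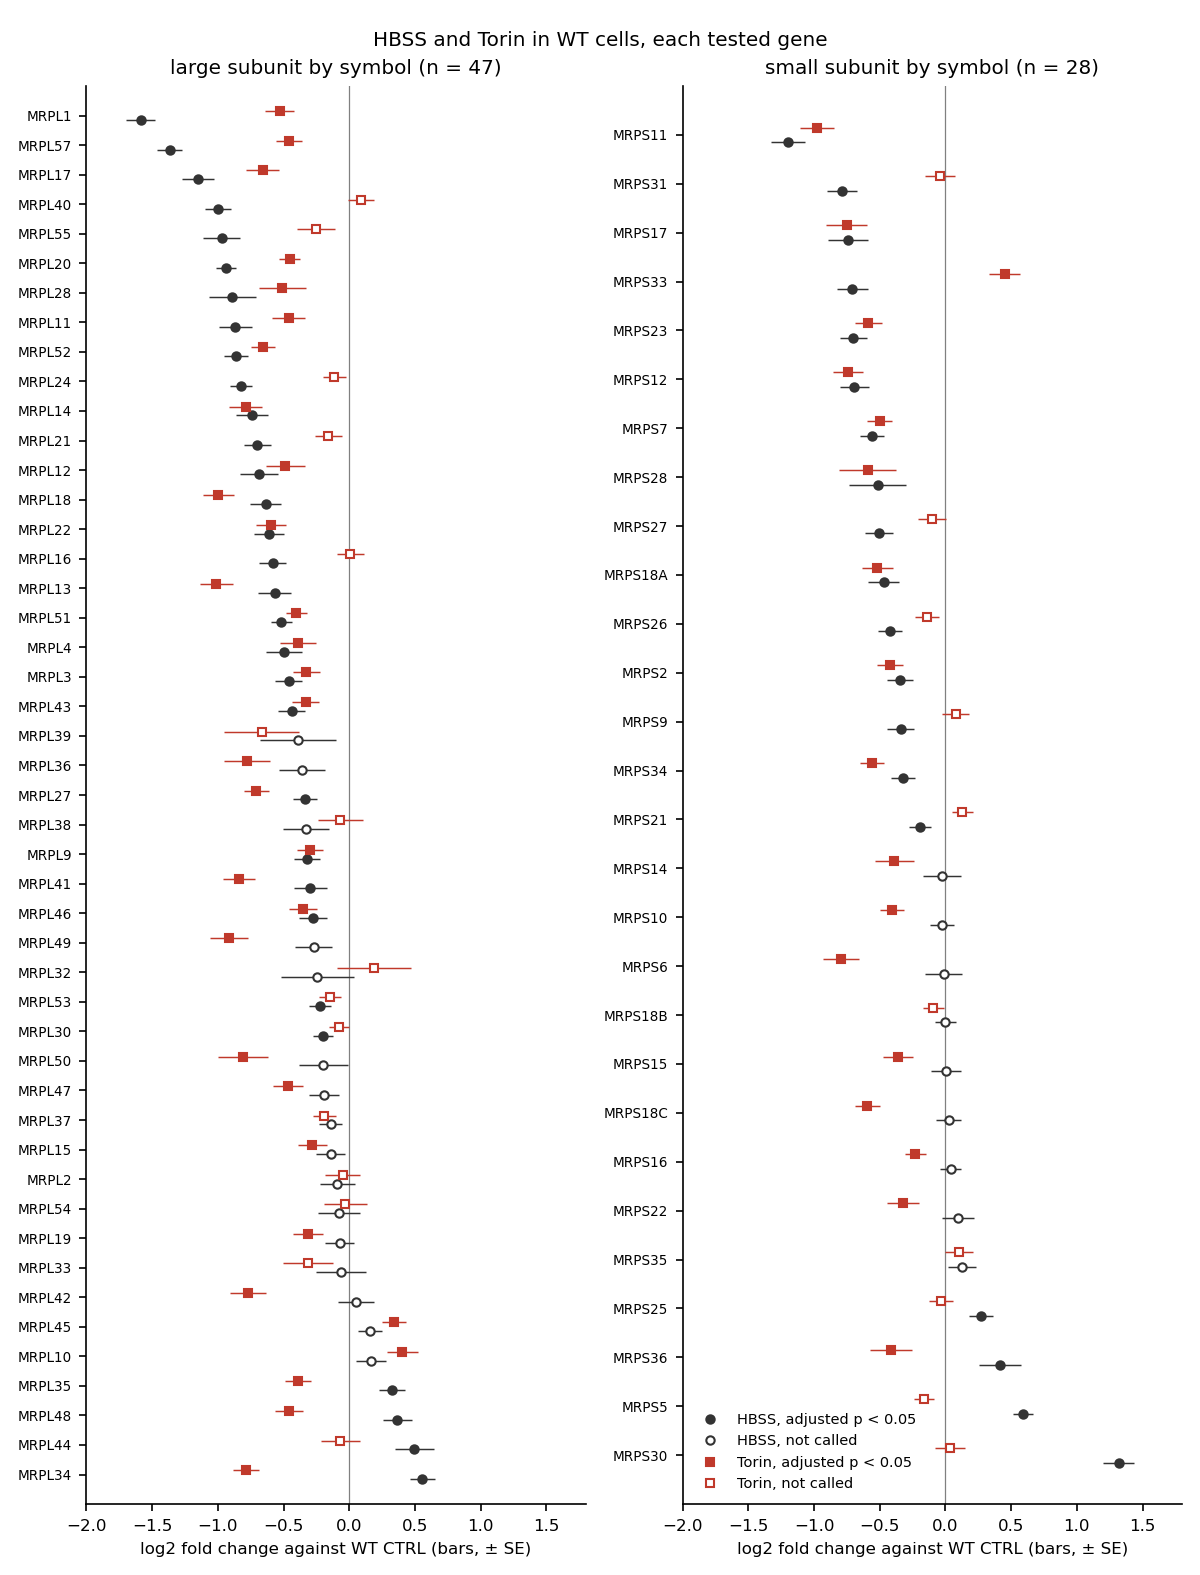
Log2 fold change against WT CTRL of every tested gene in HBSS (black circles) and Torin (red squares), ± SE, large subunit left and small subunit right, ordered by the change in HBSS; filled symbols have an adjusted p under 0.05. In HBSS 42 genes are lower and 8 higher, and in Torin 47 are lower and 3 higher.

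Torin also lowered most of these genes. In WT cells 47 of 75 fell and 3 rose, with a median of -0.39, while 23.4% of all genes fell, 20.5% rose and their median was 0.00. By subunit, 30 of 47 large and 17 of 28 small subunit genes fell (medians -0.39 and -0.38). Of the members with a bacterial counterpart 32 of 44 fell and 1 rose, and of the mitochondria-specific members 14 of 30 fell and 2 rose. On the log2(value + 1) scale of the fit, 1 member passed a 2-fold change. MRPL13, a bacterial-type protein of the large subunit, read 93.2, 73.8 and 78.1 in control and 36.3 and 43.6 in Torin, a change of -1.01 ± 0.13 (adjusted p = 6.04e-09, limma). MRPL18, whose bacterial counterpart binds 5S RNA, fell from 95.9 ± 12.0 (SD, n = 3) to 47.6 ± 7.29 (n = 2), also past 2-fold in the ratio of its means. MRPS11 fell by 0.98 ± 0.13, MRPL49 by 0.91 ± 0.14 and MRPL41 by 0.84 ± 0.12.

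The knockouts gave the same direction with Torin. In TFE3 KO cells 50 members fell and 3 rose (median -0.38), against 26% and 25.4% of all genes. In TFEB KO cells 43 fell and 2 rose (median -0.32), against 21% and 17.4%. In DKO cells 52 fell and 3 rose (median -0.39), against 26.2% and 25.4%. The large and small subunit medians were -0.45 and -0.26 in TFE3 KO, -0.33 and -0.32 in TFEB KO and -0.44 and -0.33 in DKO. By position in the ribosome they were -0.45 and -0.27, -0.33 and -0.32, and -0.39 and -0.33. The difference between the subunits was not tested. The 4 Torin comparisons share no library, but they share the estimate of each gene's spread from the common fit, so their calls are not independent. In all 4 genotypes 35 members were lower, 24 of the large and 11 of the small subunit, while 14.2% of all genes were. A further 12 were lower in 3 genotypes, 2 in 2, 12 in 1 and 14 in none. Of the 44 members with a bacterial counterpart and the 30 specific to mitochondria, 34 and 16 fell in TFE3 KO. These counts were 26 and 17 in TFEB KO and 35 and 17 in DKO.

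The lowest members were largely shared between the knockouts, and the call for each of the 4 genes below was kept under every alternative. MRPL14, which lies at the interface between the subunits, read 113, 112 and 109 in DKO controls and 42.8, 53.7 and 57.7 in DKO Torin, a change of -1.11 ± 0.11 (adjusted p = 1.14e-11, limma). It changed by -1.01 ± 0.11 in TFE3 KO and by -0.93 ± 0.11 in TFEB KO. MRPS6, a bacterial-type protein of the small subunit, read 48.1, 52.6 and 58.9 in DKO controls and 21.8, 25.2 and 25.2 in DKO Torin, and fell by 1.11 ± 0.12. The groups overlapped for neither gene. MRPL41, a mitochondria-specific protein, fell by 1.09 ± 0.11 in both TFE3 KO and DKO, and MRPL49 fell by 1.04 ± 0.13 in DKO.

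Against this direction, 2 members rose with Torin in all 4 genotypes, where 10.6% of all genes did. MRPS33, a mitochondria-specific protein of the small subunit, read 74.1, 61.0 and 55.2 in WT CTRL and 84.1 and 88.6 in WT Torin, and 65.7, 76.9 and 70.7 in DKO controls and 113, 105 and 103 in DKO Torin. Controls and Torin did not overlap in either genotype, and the rises were 0.45 ± 0.12 in WT, 0.71 ± 0.11 in TFE3 KO, 0.43 ± 0.11 in TFEB KO and 0.58 ± 0.11 in DKO. With the identical column kept as a WT Torin library, the call was lost in WT (adjusted p = 0.529, limma) and in TFEB KO (0.0521). MRPL45, which lies by the tunnel exit and ties the ribosome to the inner membrane, rose by 0.25 to 0.41, and its call in WT was lost without WT Torin replicate 2 (adjusted p = 0.0502, limma). A pseudogene by its symbol, MRPL45P2, was listed at 0.565 to 2.12 normalised counts in the group means, so reads of MRPL45 could in part be shared with it. MRPL10, which carries the stalk that recruits translation factors, rose by 0.40 ± 0.12 in WT, 0.78 ± 0.10 in TFE3 KO and 0.71 ± 0.10 in DKO. In TFEB KO it changed by 0.18 ± 0.10 (adjusted p = 0.179, limma), and its call in WT was lost with the identical column kept as WT Torin (0.0604).

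Whether the response to Torin differed between a knockout and WT was tested as an interaction, and no member was called in any of the 3. For TFE3 KO, 3 of the 75 members had an unadjusted p under 0.05 (limma), against 1402 of all 13052 genes. The lowest adjusted p was 0.327 for MRPL10. At an adjusted p under 0.05, 0.49% of all genes were called higher and 0.575% lower. For TFEB KO, 10 members and 1771 of all genes had an unadjusted p under 0.05. The lowest adjusted p was 0.124 for MRPL13, and 0.812% of all genes were called higher and 0.345% lower. For DKO, 1 member and 1282 of all genes had an unadjusted p under 0.05. The lowest adjusted p was 0.508 for MRPL21, and 0.314% of all genes were called higher and 0.192% lower. The number of calls was also 0 with edgeR and with DESeq2, and 1 member was called for TFEB KO without its CTRL replicate 3. MRPL13 illustrates the size of difference that was not called: Torin changed it by -1.01 ± 0.13 in WT and by -0.49 ± 0.11 in TFEB KO.

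HBSS and Torin in WT cells were also compared with each other directly, since their comparisons with control share the WT CTRL libraries. Between them 22 members were higher in HBSS and 16 lower, against 26.1% and 23.1% of all genes, with a median of 0.02. With values scaled to the total reads of each library, which shifts the median of all genes in this comparison from -0.01 to -0.14, 13 members were higher and 26 lower, so the balance of directions here depends on the scaling. Of the 29 members that fell under both conditions, 19 did not differ between them, 5 were lower in HBSS (MRPL1, MRPL11, MRPL17, MRPL20 and MRPL57) and 5 lower in Torin (MRPL13, MRPL18, MRPL27, MRPL41 and MRPS34).

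A few members moved in opposite directions. MRPL34 read 286, 233 and 207 in WT CTRL, 355 and 353 in HBSS and 131 and 146 in Torin. Its HBSS libraries lay above and its Torin libraries below all controls, and HBSS exceeded Torin by 1.35 ± 0.11 (log2, SE; adjusted p = 1.8e-14, limma). MRPS36, MRPL48 and MRPL35 likewise rose in HBSS and fell with Torin. MRPS33 did the reverse, reading 38.4 and 37.9 in HBSS, and was lower in HBSS than in Torin by 1.16 ± 0.13. MRPL40 fell in HBSS and was at 123 ± 1.48 (SD, n = 2) in Torin against 116 ± 11.9 (n = 3) in control, and HBSS was lower than Torin by 1.09 ± 0.11.

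**Figure D3:**
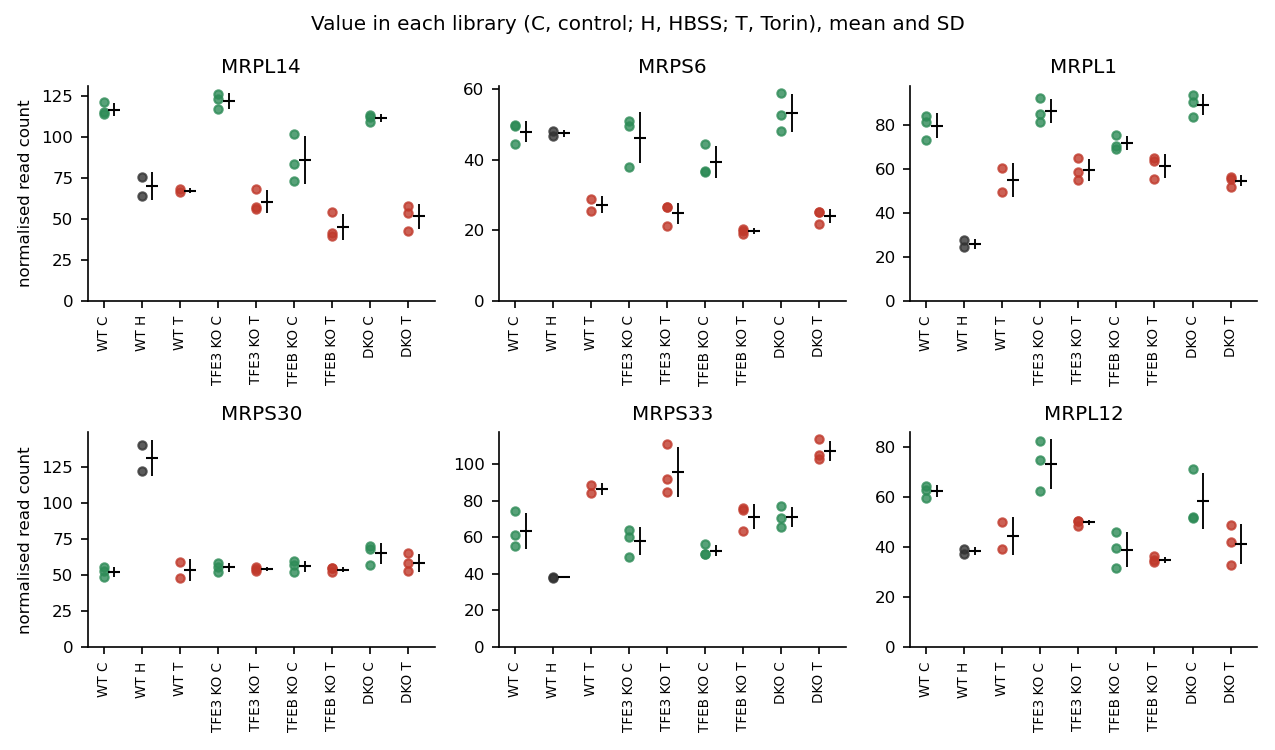
Normalised read count of 6 members in each library, with the group mean and SD beside the points; green marks controls (C), black HBSS (H) and red Torin (T). MRPL14 and MRPS6 are lower in Torin than in the control of every genotype, MRPL1 is lowest and MRPS30 highest in HBSS, MRPS33 is lower in HBSS and higher in Torin, and MRPL12 is low in the TFEB KO controls.

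Without treatment, loss of TFEB and loss of TFE3 went with different levels of these genes. In TFEB KO cells 22 of 75 were lower than in WT and 0 higher, with a median of -0.22, against 7.18% of all genes lower and 7.46% higher. The 22 were 14 of 47 large and 8 of 28 small subunit genes, and 68 of the 75 had a log2 fold change below 0. WT CTRL replicate 1 had the largest summed value of its group (9583 against 8466 and 8730), and the count was 9 without it, 13 without TFEB KO CTRL replicate 1 11 with values scaled to the total reads of each library and 9 with the identical column kept as WT Torin, and in none of these fits was a member higher. MRPL12, the L7/L12-type stalk protein that contacts elongation factors, read 59.7, 62.7 and 64.4 in WT CTRL and 39.4, 31.7 and 45.8 in TFEB KO, with no overlap. It was lower by -0.68 ± 0.13 (log2, SE; adjusted p = 0.000265, limma). MRPS28 differed by -0.64 ± 0.19 (adjusted p = 0.0203, limma) and MRPL28 by -0.55 ± 0.16 (adjusted p = 0.0153). Both were among the 5 lowest members by level, and each call was lost in 3 alternatives, for MRPS28 without WT CTRL replicate 1 (adjusted p = 0.181) or TFEB KO CTRL replicate 1 (0.0948), and for MRPL28 without WT CTRL replicate 3 (0.0696) or TFEB KO CTRL replicate 1 (0.127).

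In TFE3 KO cells 7 members were higher and 0 lower (median 0.06), against 3.57% and 5.84% of all genes. The 3 highest were MRPL2, a protein close to the peptidyl transferase centre, at 0.38 ± 0.12, MRPS9 at 0.37 ± 0.09 and MRPL53 at 0.36 ± 0.08. MRPL53 read 141, 134 and 142 in WT CTRL and 178, 177 and 184 in TFE3 KO, without overlap (adjusted p = 0.000709, limma). The call for MRPL2 (adjusted p = 0.0368) was lost in 6 alternatives, among them leaving out any TFE3 KO library (0.0724 to 0.138), and that for MRPS9 without WT CTRL replicate 3 (0.0936) or TFE3 KO CTRL replicate 2 (0.0514). The count of 7 became 3 without TFE3 KO CTRL replicate 2 or replicate 3 and 2 with the identical column kept as WT Torin, and edgeR and DESeq2 each called 7 higher and 1 lower. In DKO cells 10 members were higher and 2 lower (median 0.08), against 5.64% and 7.49% of all genes. MRPL44 was higher by 0.40 ± 0.13, MRPL35 by 0.39 ± 0.09 and MRPS30 by 0.31 ± 0.10, and MRPL18 and MRPS10 were lower by -0.34 ± 0.11 and -0.30 ± 0.08. The count of 12 became 5 without WT CTRL replicate 2, WT CTRL replicate 3 or DKO CTRL replicate 3, 6 without DKO CTRL replicate 1, 2 when these 6 libraries were fitted alone and 0 with the identical column kept as WT Torin. The calls for MRPL44, MRPS30, MRPL18 and MRPS10 were each lost in 3 to 6 alternatives, and that for MRPL35 in 1.

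The single knockouts were also compared with each other, the only pair of untreated knockouts tested. TFE3 KO exceeded TFEB KO in 43 of 75 members and was lower in 0, with a median of 0.30, while 14.3% of all genes were higher and 15.6% lower. It comprised 29 of 47 large and 14 of 28 small subunit genes. MRPL12 read 62.3, 74.7 and 82.2 in TFE3 KO against 39.4, 31.7 and 45.8 in TFEB KO, a difference of 0.90 ± 0.13 (adjusted p = 5.93e-07, limma). MRPL28 differed by 0.82 ± 0.16. MRPL39 differed by 0.81 ± 0.26 (adjusted p = 0.0153, limma), but its libraries overlapped: it read from 15.4 to 17.8 in TFE3 KO and from 5.46 to 16.6 in TFEB KO, and the call was lost in 4 alternatives. The count was 29 without TFE3 KO CTRL replicate 3, and 32 with values scaled to the total reads of each library.

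**Figure D4:**
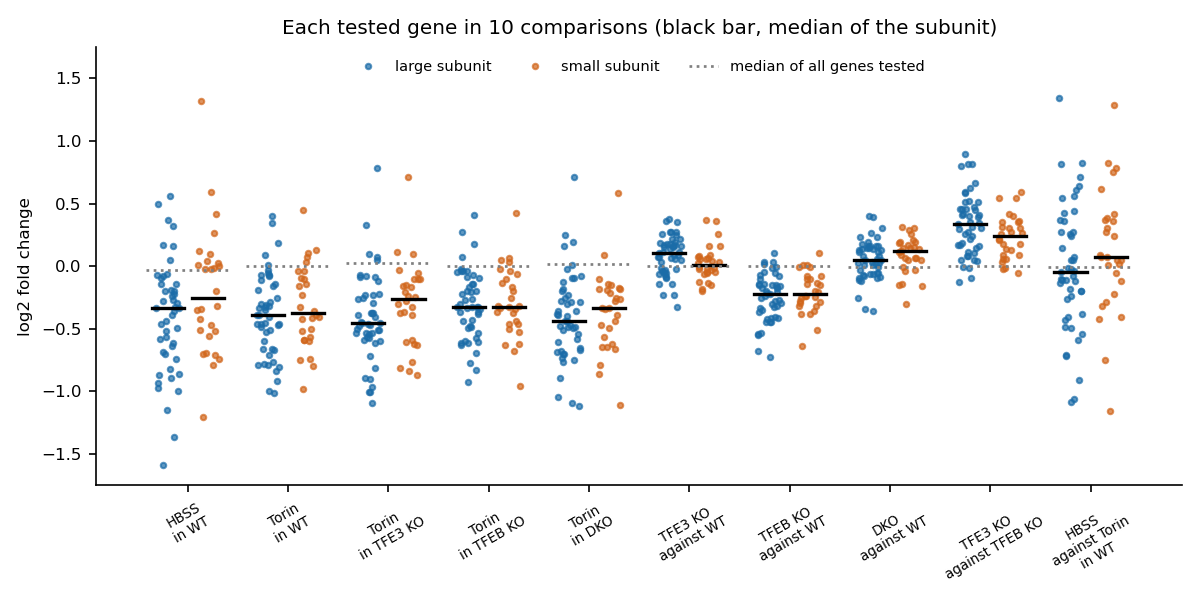
Each point is the log2 fold change of 1 tested gene in 1 of 10 comparisons, blue for the large and orange for the small subunit; black bars are subunit medians and dotted lines the median of all 13052 genes. Points shift below 0 in HBSS, in the 4 Torin comparisons and in TFEB KO, and above 0 in TFE3 KO against TFEB KO.

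The 3 paralogs of the bacterial S18 protein, which occupy different sites in the ribosome, did not move alike. MRPS18A, whose protein lies in the large subunit, fell in HBSS (-0.47 ± 0.12) and with Torin in all 4 genotypes (-0.33 to -0.52), and was lower in TFEB KO (-0.39 ± 0.11). These calls were lost in HBSS without HBSS replicate 2 (adjusted p = 0.126, limma), in TFE3 KO without its CTRL replicate 3 (0.0764) and in TFEB KO without WT CTRL replicate 1 (0.06) or with values scaled to total reads (0.0541). MRPS18B, a small subunit protein classed here as mitochondria-specific, read 356, 321 and 351 in WT CTRL and 350.2 and 334 in HBSS, which overlap. It was lower in TFEB KO, at 235, 261 and 228, by -0.51 ± 0.07 (adjusted p = 8.98e-07, limma). With Torin it was called in DKO (-0.18 ± 0.07, adjusted p = 0.0322, limma), a call lost in 9 alternatives, and in TFE3 KO it was called only without TFE3 KO Torin replicate 3 (0.0277) or with only the libraries compared (0.0448). MRPS18C, which takes the place of bacterial S18, changed by 0.02 ± 0.10 in HBSS and fell with Torin in all 4 genotypes (-0.37 to -0.59). It was higher in HBSS than in Torin by 0.62 ± 0.11.

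The 6 mitochondrial ribosomal proteins known under other symbols were examined in the same fits. In HBSS, AURKAIP1 (-0.55 ± 0.09), GADD45GIP1 (-0.54 ± 0.11) and ICT1 (-0.54 ± 0.14) fell, PTCD3 rose by 0.35 ± 0.10, and DAP3 and CHCHD1 were not called. With Torin in WT, GADD45GIP1 (-0.70 ± 0.11), CHCHD1 (-0.68 ± 0.17) and AURKAIP1 fell. In TFEB KO 3 of the 6 were lower, against 7.18% of all genes. This count was 0 when values were scaled to the total reads of each library. Among 26 assembly factors of the mitochondrial ribosome, 14 fell and 2 rose in HBSS, and 8 fell and 4 rose with Torin. As shares, 53.8% fell in HBSS against 24.7% of all genes, and 30.8% fell with Torin against 23.4%. With values rescaled by median-of-ratios size factors, 5 of the 26 fell and 4 rose with Torin, and the counts in HBSS stayed at 14 and 2. The helicase DDX28 was lowest in HBSS (-1.32 ± 0.16) and MPV17L2 in Torin (-1.68 ± 0.22), while the GTPase NOA1 rose in both (0.36 ± 0.14 and 0.88 ± 0.14). The 16 measured mitochondrial translation factors were split, with 4 lower and 2 higher in HBSS and 4 lower and 5 higher with Torin, and the 25% lower in each was close to the share over all genes. TACO1, an activator of COX1 translation, fell in both (-0.71 ± 0.12 and -0.78 ± 0.12), and the initiation factor MTIF2 rose with Torin (0.51 ± 0.08). RNAs encoded by the mitochondrial genome were not analysed here.

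Among genes of the cytosolic ribosome, more rose than fell under both treatments. Of 79 genes, 32 rose and 2 fell in HBSS (median 0.18), and 46 rose and 2 fell with Torin in WT (median 0.22), while 23.6% and 20.5% of all genes rose. Scaled to the total reads of each library, the counts in HBSS were 14 and 6 (median 0.07) and those with Torin 50 and 2. RPL13A rose by 0.54 ± 0.07 and 0.58 ± 0.07, and the 2 that fell were RPS26 and FAU in both. In TFEB KO without treatment, however, 55 of the 79 were lower and 0 higher, against 7.18% and 7.46% of all genes. This was the same direction as the mitochondrial ribosomal protein genes, and 21 were lower with the scaling to total reads. TFE3 KO likewise exceeded TFEB KO in 63 of the 79 and was lower in 0 (median 0.33), while 14.3% of all genes were higher. With the scaling to total reads 49 were higher.

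Regulators of mitochondrial biogenesis did not move as a block. In HBSS, the coactivator PPARGC1A rose from 27.6 ± 2.38 (SD, n = 3) to 204 ± 6.35 (n = 2), a change of 2.84 ± 0.16 (adjusted p = 4.49e-20, limma), and the nuclear receptor ESRRA rose by 1.15 ± 0.11. The related coactivator PPARGC1B fell by 1.06 ± 0.23 and the mitochondrial RNA polymerase POLRMT by 0.76 ± 0.15. Counts over the 12 regulators were 4 higher and 3 lower in HBSS and 1 higher and 6 lower with Torin. In HBSS the shares, 33.3% higher and 25% lower, compare with 23.6% and 24.7% of all genes, and with Torin 50% were lower against 23.4%. With Torin, GABPB1, a subunit of the ETS factor GABP, fell by 0.75 ± 0.19 and NRF1 by 0.69 ± 0.18, and MYC rose by 1.42 ± 0.26. Another GABP subunit gene, GABPA, was not called with Torin (0.24 ± 0.29). In HBSS GABPA rose by 1.13 ± 0.29 and GABPB1 was not called (0.16 ± 0.19).

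Over the means of the 9 groups, genes outside the members whose profile was most like the members' mean included PPP5C (Pearson r = 0.995), SNRPD1 (0.992), SNRPF (0.991) and CBX1 (0.989), of 12977 genes compared. These points share the normalisation of their libraries, and the values are a description.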

How the data were processed

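Polyadenylated RNA of 501mel cells was profiled with QuantSeq Forward 3′ end libraries. Per the study's methods, the authors trimmed reads with trim_galore and cutadapt 2.10, inspected them with FastQC 0.11.9, mapped them to hg38 with STAR 2.7.8a and normalised counts with edgeR. Per gene symbol, the files deposited by the authors hold a normalised count, a signal that is proportional to reads within each library. The counter, annotation, scaling factor and gene filter are not given in the sources used here. Within each library 100% of values were whole multiples of the value of 1 read (tolerance 0.1 read), so reads could be recovered. 

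The 27 columns were mapped to groups by their labels, and the identical columns (WT HBSS 3 and WT Torin 1) were left out. Values were tested as log2(value + 1), so fold changes of low genes are understated. The filter kept genes with 1 normalised count or more in 3 or more libraries (13052 of 13523, 471 not), and 1 mean per group was fitted to 25 libraries with limma 3.58.1 (eBayes with trend and robust, R 4.3.3). Two-sided p-values were adjusted by Benjamini-Hochberg within each of the 13 comparisons, and calls were made at 0.05 without a limit on fold change. The fit was also run on simulated data to check the code, and no result given here rests on that run. Reads recovered were tested with edgeR 4.0.16 and DESeq2 1.42.0 as alternatives, beside the pseudocount (0.1), the filter (none, or a value of 5), size factors, the samples fitted, the identical column kept, the total reads as scaling, single libraries left out and the replicate block.

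Members, lists and tests were chosen with earlier results of these data known. Subunit was taken from the symbol. The genes named are the members at the ends of each comparison among those called with a mean of at least 5 (5 at each end for HBSS and Torin, 3 otherwise), those called past 2-fold, the MRPS18 paralogs, the 5 highest and lowest levels, the 2 highest and lowest called genes of each list, and the 5 most similar profiles, of which 1 is not reported here. MRPL22, MRPL37, MRPL46 the other symbols ICT1 and DAP3 and the members listed by class of response were named after their values were seen.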

Additional observations from a re-analysis of the deposited data

How the results depend on the processing

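Counts of members called in HBSS and in the 4 Torin comparisons stayed within 1.5 times under every alternative, and no direction reversed. With 1 library left out, members called ranged from 38 to 48 in HBSS, 38 to 48 with Torin in WT, 47 to 53 in TFE3 KO, 40 to 45 in TFEB KO and 47 to 55 in DKO, from 3 to 7 for TFE3 KO against WT, 9 to 21 for TFEB KO, 5 to 12 for DKO, 29 to 40 for TFE3 KO against TFEB KO, 30 to 35 for HBSS against Torin, and from 0 to 1 for the Torin interaction of TFEB KO, where the 1 call appeared without TFEB KO CTRL replicate 3; the other interactions had 0. With the identical column kept as WT Torin, the counts were 2 for TFE3 KO against WT, 9 for TFEB KO, 0 for DKO and 20 for HBSS against Torin; kept as WT HBSS they were 7, 23, 12 and 40. That column had reads in 12917 genes, the WT HBSS libraries in 12895 and 12901 and the WT Torin libraries in 13188 and 13181, and its group was not taken from these values. The DKO count was 2 with only the libraries compared, and the TFEB KO count 11 with values scaled to the total reads of each library, a setting chosen after seeing the data. By position in the ribosome, the small subunit median in HBSS was -0.32 and the large -0.34. The causes of these shifts were not tested. Of 1703 alternative values for the 100 results on single members, 1640 kept their side of the threshold, 61 lost and 2 gained the call.

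The labels give each group the same replicate numbers, but deviations of same-numbered libraries had correlations of -0.192 to 0.161 over 63 pairs, 4 of them over 0.1, so the numbers were not read as pairs. With the replicate block, 47 members were called in HBSS, 52 with Torin in WT, 54 in TFE3 KO, 45 in TFEB KO, 55 in DKO, 7, 25 and 12 for the TFE3, TFEB and double knockouts against WT, 43 between the single knockouts and 40 between HBSS and Torin. With 2 libraries in WT HBSS and WT Torin, and 12 to 22 normalised counts for the 5 lowest members, small changes of these genes were not detectable at this depth.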
